A study of Mus musculus with 6 samples.

Results

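The Rag GTPases and the Ragulator complex carry the nutrient signal to mTORC1 at the lysosome, and 10 of their genes were followed here in hematopoietic stem cells (HSCs) after IGF1. The genes were looked up by symbol, and all 10 were found among the 21878 gene rows of each library. They comprise the Rag GTPase genes Rraga, Rragc and Rragd, the Ragulator genes Lamtor1 to Lamtor5, the lysosomal amino acid sensor gene Slc38a9 and the Rag regulator gene Flcn. HSCs were sorted from the bone marrow (BM) of wild-type C57BL/6 mice as Lineage-, Sca-1+, c-Kit+, Flt3- and CD34- cells, and mRNA was sequenced from 3 libraries per group. Controls received vehicle, and the IGF1 group received recombinant mouse IGF1 once under the skin and was sampled at day 1. The age and sex of these mice and the number of animals behind each library are not given in the sources used here. A sample label conflicts with this account, since the wording on RNA extraction names irradiated mice, whereas the treatment label and the design of the series name IGF1. The labelled treatment was used, whatever the values showed.

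mTORC1 is the kinase complex that couples growth factors and nutrients to protein synthesis, ribosome production and suppression of autophagy. When amino acids are plentiful, a heterodimer of RagA or RagB with RagC or RagD recruits mTORC1 to the lysosomal surface, where growth factor signals such as that of IGF1 reach it through the GTPase RHEB. Ragulator is the scaffold that tethers the Rag heterodimer to the lysosomal membrane, and mTORC1 activity is known to accompany the exit of HSCs from quiescence.

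The regulatory windows of 3 genes are shown first because they hold the letters CACGTG, the E-box core that the MiT/TFE transcription factors TFEB and TFE3, themselves clients of the Rag GTPases, can bind. Each window runs 5′ to 3′ on the plus strand from 250 bases before to 50 bases after the start of the RefSeq gene (build GRCm38.p6), and the capitals mark CACGTG. They lie at chr4:123917183-123917482 for Rragc, chr7:101905587-101905886 for Lamtor1 and chr5:138255232-138255531 for Lamtor4.
Rragc: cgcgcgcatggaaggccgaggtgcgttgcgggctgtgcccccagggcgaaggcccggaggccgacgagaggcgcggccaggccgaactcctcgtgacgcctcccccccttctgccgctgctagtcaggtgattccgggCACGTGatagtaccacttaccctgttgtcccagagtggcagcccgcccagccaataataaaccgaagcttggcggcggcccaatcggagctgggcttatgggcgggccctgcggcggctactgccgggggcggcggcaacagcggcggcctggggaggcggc
Lamtor1: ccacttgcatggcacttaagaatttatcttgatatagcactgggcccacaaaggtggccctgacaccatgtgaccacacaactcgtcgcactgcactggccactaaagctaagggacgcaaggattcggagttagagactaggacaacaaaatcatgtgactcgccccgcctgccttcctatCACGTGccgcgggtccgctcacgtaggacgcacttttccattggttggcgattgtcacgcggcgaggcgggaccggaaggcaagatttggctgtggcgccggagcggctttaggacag
Lamtor4: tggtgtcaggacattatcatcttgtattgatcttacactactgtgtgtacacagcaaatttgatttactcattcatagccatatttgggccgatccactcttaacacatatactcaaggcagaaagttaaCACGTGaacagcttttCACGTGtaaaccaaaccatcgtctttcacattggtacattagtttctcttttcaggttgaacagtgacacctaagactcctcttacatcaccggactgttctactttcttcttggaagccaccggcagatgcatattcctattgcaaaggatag
The E-box core began at position -112 from the gene start in Rragc, at -68 in Lamtor1, and at -120 and -104 in Lamtor4. CACGTG reads the same on both strands, and it was found in 3 of the 9 genes with a window, against 7.15% of 32851 mouse windows of the same 300 bases. The longer TCACGTGA, which contains it, was found in 0 of the 9 and in 0.974% of all windows. The other genes with a window were Rraga, Rragd, Lamtor2, Lamtor5, Slc38a9 and Flcn. A match is a description of the letters only, and the genes that hold it differed in direction below, with Rragc lower in IGF1 libraries and the Lamtor1 and Lamtor4 log2 fold changes above 0.

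The libraries were not alike within the control group, which touches every value that follows. Depth recovered from the values was 11206746 to 15973581 reads per library. On those reads, the chi-squared statistic per gene was 1.52 between control replicates 1 and 3 and 1.69 to 1.89 among the IGF1 libraries, where counting noise alone gives about 1. Control replicate 2 stood apart, at 229 to 231 from the other controls and 24.6 to 28.0 from the IGF1 libraries. Whether this library is a control, as its label says, was not tested. Fold changes of the tested genes followed here are therefore given with and without it, in the text or a figure. In the wider pathway, single values include it unless stated. The defining markers did not follow the sort fully, since Cd34 and Flt3, both sorted against, were abundant, Mpo of granulocyte precursors was at 1613 to 1705 FPKM, and the HSC markers Fgd5 and Hoxb5 were under 2 FPKM. These genes also differed between libraries, with Cd34 at 640, 265 and 634 FPKM in control replicates 1 to 3 against 230 to 238 FPKM in IGF1 libraries, and Flt3 at 117, 172 and 117 FPKM against 183 to 188 FPKM. Kit, sorted for, was at 105, 31.4 and 104 FPKM against 24.2 to 24.6 FPKM. Ly6a, the gene of Sca-1 and also sorted for, was at 219, 615 and 231 FPKM against 374 to 387 FPKM. Its IGF1 libraries thus lay above control replicates 1 and 3. Summed over 7 B-cell markers, control replicate 2 (296 FPKM) stood with the IGF1 libraries (295 to 311 FPKM) and not with the other controls, the lower of which had 90.7 FPKM. Over 5 T and NK markers, nearly all of it from Nkg7, the sum was 777 FPKM in control replicate 2 and 769 to 788 FPKM in the IGF1 libraries, against 358 FPKM in the lowest control. Over 9 neutrophil and monocyte markers the ranges were 2297 to 2826 FPKM in controls and 2790 to 2803 FPKM in IGF1 libraries. Most of that sum was Mpo, and others of the list went both ways, as in S100a8 at 284, 163 and 285 FPKM against 55.0 to 72.8 FPKM, and Elane at 92.8, 576 and 92.5 FPKM against 692 to 709 FPKM. Ngp, at 79.0, 11.5 and 78.2 FPKM in controls, was at 2.22 to 3.73 FPKM in IGF1 libraries. Over 5 megakaryocyte and platelet markers the sum was 51.8 to 74.5 FPKM in controls and 93.1 to 104 FPKM in IGF1 libraries. Here too members went both ways. Pf4 was at 15.6, 48.6 and 15.1 FPKM against 63.05 to 73.7 FPKM. Itga2b was at 32.2, 16.8 and 32.3 FPKM against 17.9 to 19.3 FPKM. No marker was at 0 in every library, the part of other cell types in the results was not tested, and in such bulk samples fewer cells of a type and less RNA per cell cannot be told apart.

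In HSCs of IGF1-treated versus control mice, Rraga and Rragc were lower, at 0.466 and 0.416 of the control level on the scale of FPKM + 1, and Rragd was too low to be tested. None of the 5 Ragulator genes passed the test, although Lamtor2 and Lamtor4 had log2 fold changes near or above 1. Calls required a fold over 2 together with an adjusted p under 0.05 (limma on log2 of FPKM + 1, Benjamini-Hochberg over all genes). FPKM is a read count divided by gene length and sequencing depth, so levels can be set side by side between genes. Of the 9 genes that reached 1 FPKM in 3 libraries, 2 were called, both lower, against 6.61% of the 10449 genes tested (1.98% higher and 4.63% lower). The groups did not overlap in 6 of the 9, against 59.4% of all genes, so that share of the genes followed here was near the background. Their median log2 fold change was 0.04, beside -0.18 over all genes.

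**Figure D1:**
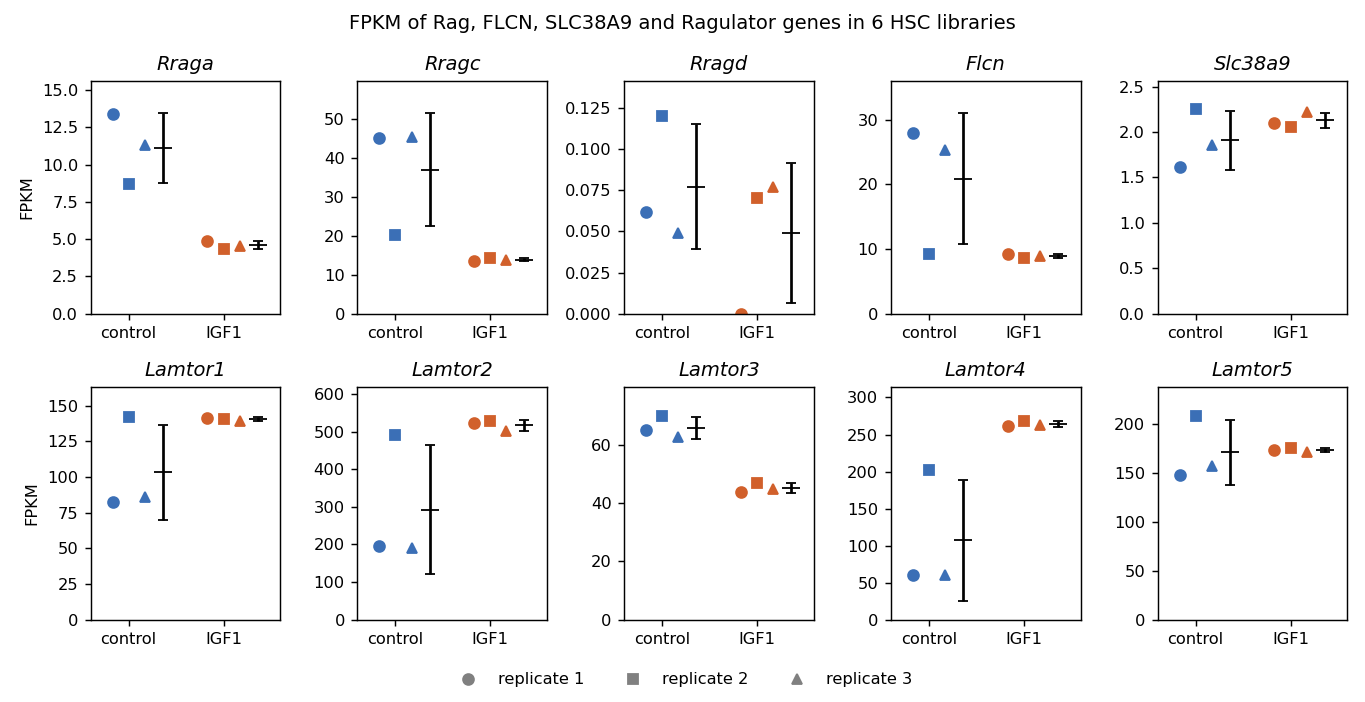
FPKM of the 10 genes (vertical axes, each from 0) in the 3 control (blue) and 3 IGF1 (orange) libraries, with replicate number as the marker shape and the mean ± SD of each group in black. In Rragc, Flcn, Lamtor1, Lamtor2 and Lamtor4, control replicate 2 (squares) lies closer to the IGF1 group than to controls 1 and 3.

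Rraga encodes RagA, the GTPase whose GTP-bound form engages mTORC1. It lies at chr4:86575668-86577285 (GRCm38, plus strand) and has 1 exon. The controls, given in the order of replicates 1 to 3 here and below, had 13.4, 8.70 and 11.3 FPKM. In IGF1 libraries it had 4.85, 4.32 and 4.57 FPKM. Every control was above every IGF1 library, with control replicate 2 the lowest control. The means were 11.1 ± 2.35 FPKM in controls and 4.58 ± 0.264 FPKM in IGF1 libraries (SD, n = 3 each). The log2 fold change was -1.10 (SE 0.17, adjusted p = 0.0290 from limma), over 79 to 346 reads per library, and the exact 2-sided permutation test gave p = 0.1, the smallest that 3 libraries against 3 allow. Without control replicate 2, Rraga was again called lower (-1.25, adjusted p = 1.7e-07). Under TMM and 75th percentile scaling, which moved the median of all genes from -0.18 to 0.00 and 0.04, its adjusted p stayed under 0.05 but the log2 fold change of -0.92 and -0.88 no longer passed the fold threshold.

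Rragc encodes RagC, the partner GTPase of the heterodimer, which works in its GDP-bound form. It lies at chr4:123917446-123936997 on the plus strand. It had 45.3, 20.3 and 45.5 FPKM in controls, and in IGF1 libraries 13.5, 14.3 and 13.9 FPKM. The groups did not overlap, yet control replicate 2 stood closer to the IGF1 libraries than to the other controls. The log2 fold change was -1.27 (SE 0.32, adjusted p = 0.0459 from limma; exact permutation p = 0.1), from means of 37.0 ± 14.5 and 13.9 ± 0.368 FPKM (SD, n = 3). Leaving out control replicate 2 gave -1.64. Its transcript shares 267 identical bases with the opposite-strand gene 4930535I16Rik, which has no row of its own, and the sources used here do not say whether counting used strand.

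Rragd encodes RagD, the alternative to RagC, known as a target of MiT/TFE factors. It was close to absent, at 0.0618, 0.120 and 0.0492 FPKM in controls and 0, 0.0700 and 0.0768 FPKM in IGF1 libraries, or 0 to 7 reads per library. The count of 0 in IGF1 replicate 1 allows up to 3 reads, or 0.0480 FPKM, counting error only. It was too low to be tested, so a difference between groups was not detectable at this depth. RagB, the alternative to RagA, is encoded by Rragb, which stood at 1.004 to 2.99 FPKM with a log2 fold change of -0.27 (adjusted p = 0.419 from limma).

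Flcn encodes folliculin, which promotes GTP hydrolysis by RagC and RagD. The gene lies at chr11:59791408-59810016 on the minus strand. Its levels were 28.0, 9.29 and 25.3 FPKM in controls and 9.28, 8.55 and 8.94 FPKM in IGF1 libraries. Control replicate 2 was thus level with the highest IGF1 library, and only the other controls were high. At a log2 fold change of -1.004 (SE 0.40) it was not called (adjusted p = 0.0893 from limma; exact permutation p = 0.1). Without control replicate 2, Flcn was called lower at -1.48 (adjusted p = 6.0e-09).

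Slc38a9 encodes a lysosomal membrane protein that senses arginine and acts on the Rag heterodimer together with Ragulator. It had 1.61, 2.25 and 1.86 FPKM in controls and 2.10, 2.06 and 2.23 FPKM in IGF1 libraries. The groups overlapped, and the log2 fold change was 0.11 (SE 0.12, adjusted p = 0.437 from limma; exact permutation p = 0.4).

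Lamtor1 encodes the subunit that anchors Ragulator in the lysosomal membrane through lipid modifications and wraps around the other subunits. The gene lies at chr7:101905904-101926675 on the plus strand. It had 82.5, 142 and 85.7 FPKM in controls and 142, 141 and 139 FPKM in IGF1 libraries. Control replicate 2 was the highest of all 6 libraries, so the groups overlapped. With a log2 fold change of 0.48 (SE 0.22), Lamtor1 was not called (adjusted p = 0.120 from limma; exact permutation p = 0.4). It became 0.73 without that library, with an adjusted p of 8.3e-09 but still short of the fold threshold.

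Lamtor2 and Lamtor3 encode a pair of roadblock-domain subunits that bind each other and were also known as a scaffold for MEK1 and ERK signalling on late endosomes. Lamtor2 (chr3:88549819-88553074, minus strand) had 197, 490 and 191 FPKM in controls and 523, 527 and 501 FPKM in IGF1 libraries. Its groups did not overlap, but control replicate 2 sat just under the lowest IGF1 library. Its log2 fold change of 0.97 (SE 0.38) was not called (adjusted p = 0.0874 from limma; exact permutation p = 0.1). Without control replicate 2, Lamtor2 was called higher at 1.41 (adjusted p = 7.9e-11).

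Lamtor3 (chr3:137918506-137928900, plus strand) went the other way from its partner. Controls had 65.0, 69.8 and 62.6 FPKM, and IGF1 libraries had 43.7, 47.0 and 44.9 FPKM. In this gene control replicate 2 kept with the other controls and was the highest of them, and the groups did not overlap. The log2 fold change was -0.53 (SE 0.09), with an adjusted p of 0.0350 from limma but a fold under 2, so it was not called. By adjusted p alone 3 of the 9 genes passed (Rraga, Rragc and Lamtor3), against 20.4% of all genes. The Lamtor3 value without control replicate 2 was -0.49. Under TMM scaling it was -0.33 (adjusted p = 0.0842).

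Lamtor4 and Lamtor5 encode the other roadblock pair of Ragulator. Lamtor4 (chr5:138255482-138259398, plus strand) had 60.3, 202 and 60.2 FPKM in controls and 261, 268 and 263 FPKM in IGF1 libraries. Control replicates 1 and 3 were nearly equal and low, the IGF1 libraries were high, and control replicate 2 lay between them. The log2 fold change of 1.54 (SE 0.48), from means of 107 ± 81.8 and 264 ± 3.59 FPKM (SD, n = 3), was not called (adjusted p = 0.0591 from limma; exact permutation p = 0.1). Leaving out control replicate 2 brought it to 2.11 (adjusted p = 4.6e-12), called higher.

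Lamtor5 (chr3:107278858-107284082, plus strand) differed from Lamtor4, its binding partner. It had 147, 208 and 157 FPKM in controls and 173, 175 and 171 FPKM in IGF1 libraries. The controls lay on both sides of the IGF1 libraries, and control replicate 2 was the highest of all. The log2 fold change was 0.04 (SE 0.16, adjusted p = 0.856 from limma; exact permutation p = 1), and it was -0.09 under quantile normalization and 0.24 under TMM scaling. Processed pseudogenes at least 91.3% identical over parts of Lamtor1, Lamtor3, Lamtor4 and Lamtor5 have no rows of their own, so these values are uncertain to the extent that their reads were shared.

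**Figure D2:**
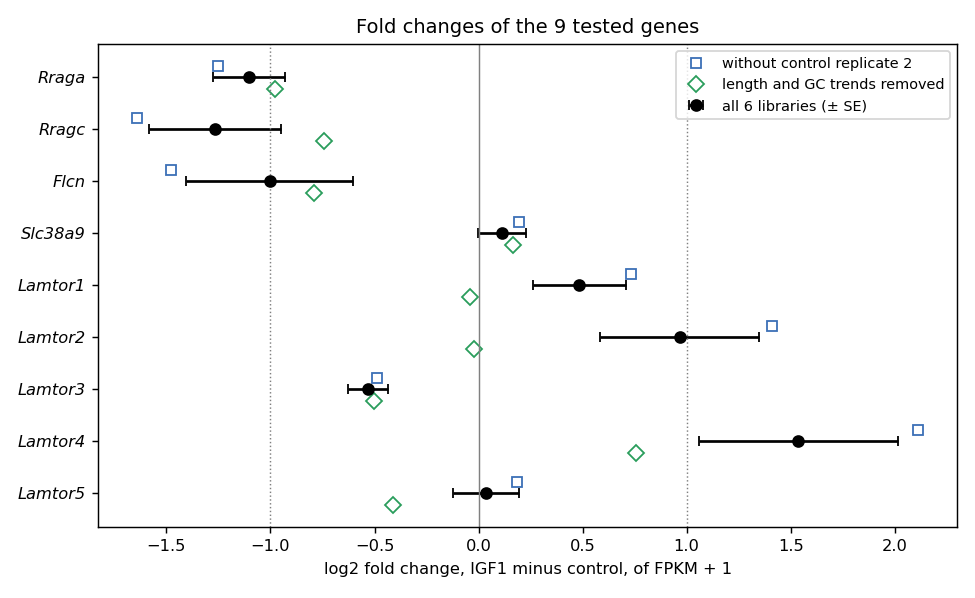
Log2 fold change of the 9 tested genes, IGF1 minus control, on the scale of FPKM + 1 (horizontal axis, dotted lines at a fold of 2). Black points with SE bars use all 6 libraries, blue squares leave out control replicate 2, and green diamonds remove trends with gene length and GC content. Lamtor2 moves from 0.97 to 1.41 without that library and to -0.02 with the trends removed, whereas Rraga stays between -1.25 and -0.98.

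Without control replicate 2, 5 of the 9 genes were called, namely Lamtor2 and Lamtor4 higher and Rraga, Rragc and Flcn lower. Read against the background this was not a rare outcome, because 32.9% of all genes were then called (12.3% higher and 20.6% lower). By adjusted p alone all 9 then passed, as did 88.5% of all genes. Leaving out any other library left 0 of the 9 genes and 0 of all genes called by limma, while 685 to 1181 genes still had an unadjusted p under 0.05 with a fold over 2.

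Per unit length, the Ragulator genes summed to far more than the Rag genes in every library, with Lamtor2 the largest part. Single genes could lie close, as Lamtor4 at 60.3 and 60.2 FPKM beside Rragc at 45.3 and 45.5 FPKM in control replicates 1 and 3. The summed FPKM of the 5 Lamtor genes was 551, 1112 and 556 in controls and 1142, 1158 and 1118 in IGF1 libraries. The summed FPKM of the 3 Rag GTPase genes was 58.7, 29.2 and 56.9 in controls and 18.4, 18.7 and 18.5 in IGF1 libraries. Their ratio was 9.39, 38.1 and 9.77 in controls and 62.2, 62.1 and 60.4 in IGF1 libraries, so each IGF1 library exceeded each control and control replicate 2 lay between. As a difference of mean log2 levels (5 Lamtor genes minus Rraga and Rragc), the gap was 1.68 wider in IGF1 libraries, against an SD of 0.96 among controls. It was 2.24 wider without control replicate 2. The ratio is made of the values given above and is no separate result.

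**Figure D3:**
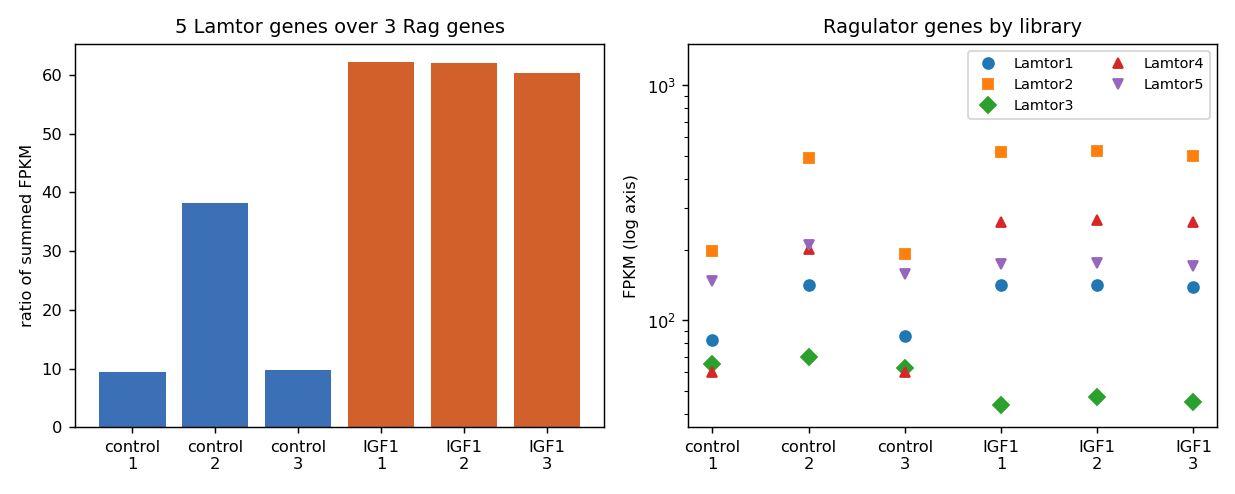
Left, summed FPKM of the 5 Lamtor genes divided by that of the 3 Rag GTPase genes (vertical axis, from 0) in each library, controls in blue and IGF1 in orange. Right, FPKM of each Lamtor gene in each library on a log axis. The ratio is 9.39 to 38.1 in controls and 60.4 to 62.2 in IGF1 libraries, and Lamtor4 passes from the lowest of its family in control replicates 1 and 3 to the place just under Lamtor2 in the IGF1 libraries.

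The balance within Ragulator, whose subunits are present in equal number in the complex, also differed between libraries at the RNA level. Lamtor2 was the highest of the 5 in all 6 libraries. The lowest was Lamtor4 in control replicates 1 and 3, and Lamtor3 in the other libraries. Highest over lowest was 3.26, 7.02 and 3.17 in controls and 11.96, 11.2 and 11.2 in IGF1 libraries. For the roadblock partners Lamtor4 over Lamtor5, the ratio was 0.410, 0.970 and 0.384 in controls and 1.51, 1.53 and 1.54 in IGF1 libraries. In contrast the ratio of Rragc to Rraga, the heterodimer partners, was 3.38, 2.34 and 4.03 in controls and 2.79, 3.30 and 3.04 in IGF1 libraries, and its groups overlapped.

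By mean FPKM the order in controls was Lamtor2, Lamtor5, Lamtor4, Lamtor1, Lamtor3, Rragc, Flcn, Rraga, Slc38a9 and Rragd. Values of neighbours in that order overlapped in 5 of 9 pairs, namely from Lamtor2 down to Lamtor1 and from Rragc down to Rraga. In IGF1 libraries Lamtor4 stood above Lamtor5, the rest kept their order, and 0 of the 9 neighbouring pairs overlapped.

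Fold changes over all genes differed with gene length. The length by which each value was scaled, read from the size of 1 read in FPKM, was 577 bases for Lamtor2, 886 for Lamtor4, 892 for Lamtor5, 1199 for Lamtor1 and 1274 for Lamtor3. It was 1628 bases for Rraga, 2630 for Rragc, 3782 for Flcn and 11291 for Slc38a9. Over the 673 tested genes under 1000 bases the median log2 fold change was 0.91 (quartiles 0.46 and 1.32), and 91.4% of them were above 0. In the 1893 genes of 1000 to 2000 bases it was 0.10 (-0.36 and 0.52), and in the 3728 genes of 2000 to 4000 bases -0.38 (-0.84 and 0.09). It was -0.25 (-0.66 and 0.18) in the 3807 genes of 4000 bases and over, so the trend did not go on falling. Lamtor2 at 0.97 was thus near the middle of its length class, Lamtor4 at 1.54 above the upper quartile and Lamtor5 at 0.04 below the lower quartile. Rraga at -1.10, Rragc at -1.27, Flcn at -1.004 and Lamtor3 at -0.53 were each below the lower quartile of theirs, and Lamtor1 at 0.48 and Slc38a9 at 0.11 were within their quartiles.

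**Figure D4:**
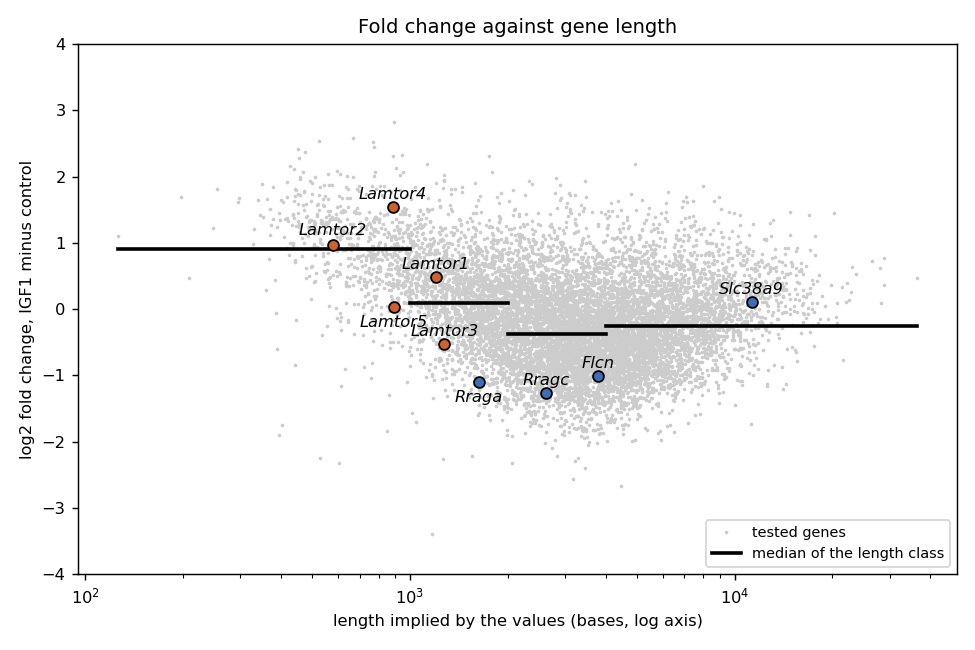
Log2 fold change, IGF1 minus control (vertical axis), against the length implied by the values in bases (log axis) for the tested genes (gray), with Lamtor genes in orange and the others followed here in blue. Black lines give the median of each length class, from 0.91 under 1000 bases to -0.38 at 2000 to 4000 bases and -0.25 above that.

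With smooth trends in length and GC content removed from each library, values moved in Ragulator and Rag genes alike, most in Lamtor2 and least in Lamtor3. Lamtor2 came to -0.02, Lamtor1 to -0.04 and Lamtor5 to -0.41 (adjusted p = 0.0402 from limma), all with the opposite sign. Lamtor4 kept its direction at 0.76 (adjusted p = 0.0591). For Lamtor3 the value was -0.50 (adjusted p = 0.0285), for Flcn -0.79 (adjusted p = 0.0909) and for Slc38a9 0.17 (adjusted p = 0.239). Rraga at -0.98 (adjusted p = 0.0327) and Rragc at -0.74 (adjusted p = 0.0457) kept an adjusted p under 0.05 but no longer passed the fold threshold, so 0 of the 9 genes were called, against 2.74% of all genes. With control replicate 2 also left out, an alternative chosen after seeing the data, 3 were called, Lamtor4 higher (1.022) and Rraga and Flcn lower (-1.14 each), against 19.1% of all genes (10.4% higher and 8.64% lower). The gap between Lamtor and Rag levels was 0.82 wider in IGF1 libraries with the trends removed over all libraries. It was 1.05 wider with control replicate 2 also left out. Whether length has a part in the RNA or in the libraries was not tested.

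Around these genes, the wider amino acid sensing pathway held calls in both directions. Of 41 other pathway genes, 37 could be tested, and 2 were called higher and 4 lower, against 1.98% and 4.63% of all genes. Their median log2 fold change was -0.01, with 18 above 0 and 19 below. Without control replicate 2, 6 were called higher and 7 lower, against 12.3% and 20.6% of all genes. Fnip2, Sh3bp4, Rnf152 and Mitf were too low to be tested.

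The upstream sensors held 2 of the lower genes, the sestrin genes Sesn1 (-1.10, adjusted p = 0.0481 from limma) and Sesn2 (-1.09, adjusted p = 0.0429), which encode the stress-induced leucine sensors that restrain GATOR2. Sesn2 had 4.77, 2.18 and 4.81 FPKM in controls and 1.24, 1.26 and 1.196 FPKM in IGF1 libraries, without overlap. Sesn3 was the highest of the 6 sensors tested at 0.34 (adjusted p = 0.219).

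GATOR2, which relieves inhibition of the Rag GTPases by GATOR1, had 1 of 5 genes called, Mios at -1.32 (adjusted p = 0.0440 from limma). Mios had 15.03, 6.71 and 15.7 FPKM in controls and 3.75, 4.26 and 4.35 FPKM in IGF1 libraries. The lowest value in GATOR2 was that of Seh1l, a nucleoporin shared with the nuclear pore (-1.38, adjusted p = 0.0636), and the highest that of Wdr59 (0.24). In GATOR1, the GTPase-activating complex for RagA, 0 of 3 genes were called, with Depdc5 at -0.93 (adjusted p = 0.0287, fold under 2) and Nprl3 at -0.08. Seh1l (-1.93) and Depdc5 (-1.03) were also called lower without control replicate 2.

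Among direct Rag regulators, Skp2, a ubiquitin ligase subunit with RagA among its substrates and better known for degrading p27 at the start of S phase, was lower (-1.41, adjusted p = 0.0415 from limma). Its values were 10.3, 4.36 and 10.6 FPKM in controls and 2.41, 2.47 and 2.19 FPKM in IGF1 libraries. Tmem127 was at -0.54 (adjusted p = 0.0459, fold under 2). The FLCN partner Fnip1 was at 0.23 (adjusted p = 0.491).

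Slc36a1, a lysosomal amino acid transporter also called PAT1, was higher at 1.34 (adjusted p = 0.0369 from limma). It had 1.04, 2.72 and 0.938 FPKM in controls and 5.52, 5.12 and 4.97 FPKM in IGF1 libraries. BORC, the complex that couples lysosomes to kinesin transport and that Ragulator binds, had 1 of 8 genes called, Borcs6 at 1.04 (adjusted p = 0.0287). Borcs6 had 3.71, 5.39 and 3.99 FPKM in controls and 9.72, 9.80 and 10.4 FPKM in IGF1 libraries, where no control came near the IGF1 group. The extremes of BORC were Bloc1s1 at 1.46 (adjusted p = 0.0554) and Snapin at -0.73 (adjusted p = 0.0407, fold under 2). Without control replicate 2, 4 of the 8 BORC genes were called higher, among them Bloc1s1 at 1.98.

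Neither Tfeb (0.38, adjusted p = 0.0631 from limma) nor Tfe3 (0.08, adjusted p = 0.627) was called. In the mTORC1 core 0 of 5 genes were called, from Mlst8 at -0.76 (adjusted p = 0.123) to Akt1s1, which encodes the inhibitor PRAS40, at 0.32 (adjusted p = 0.127). Mlst8 had 7.22, 2.34 and 6.44 FPKM in controls and 2.23, 2.72 and 2.53 FPKM in IGF1 libraries. Without control replicate 2, it was called lower at -1.17 (adjusted p = 4.4e-07 from limma).

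**Figure D5:**
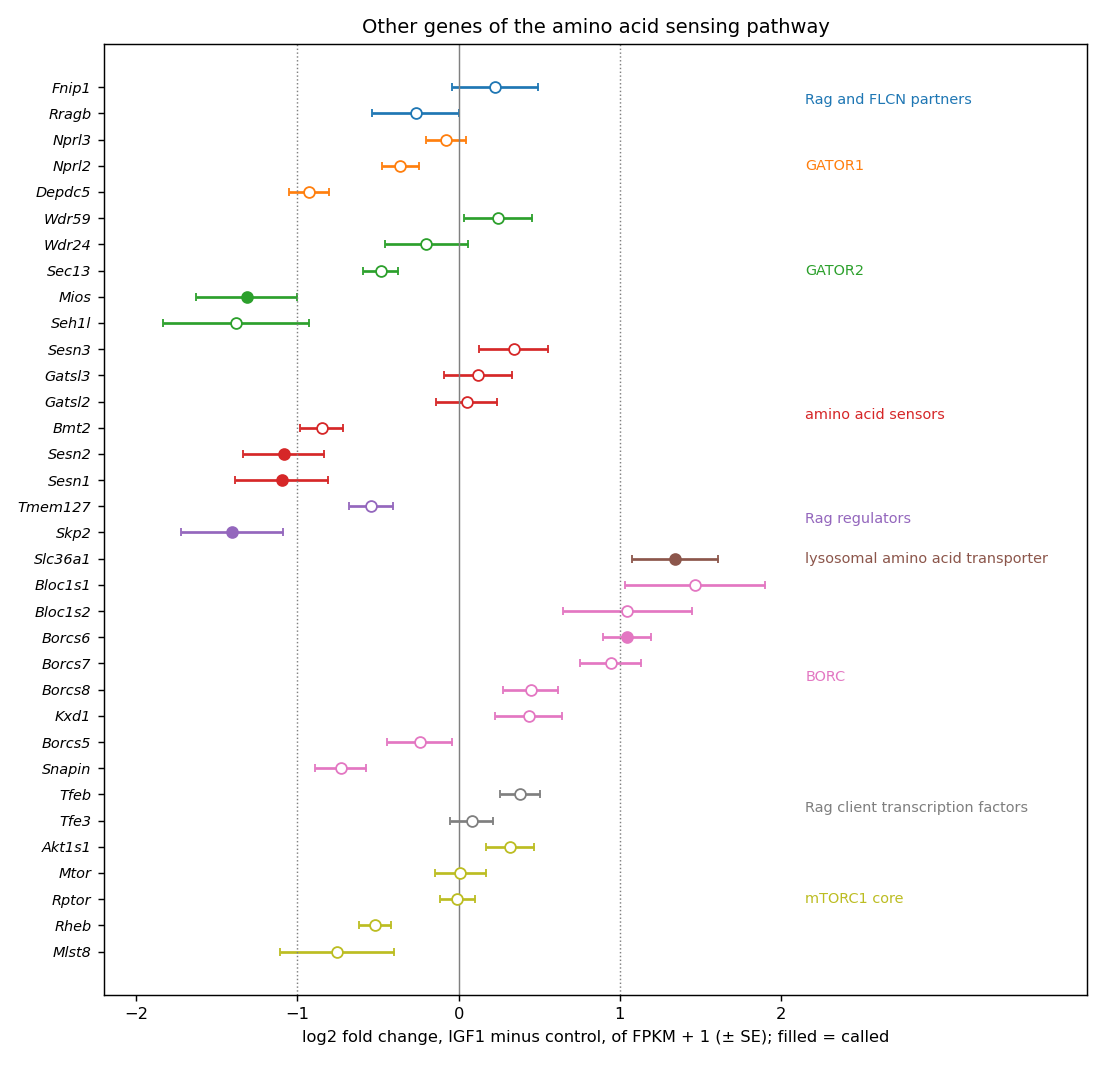
Log2 fold change ± SE, IGF1 minus control, of tested genes of the wider pathway, grouped and coloured by role, with called genes filled and 1 role group not shown. The 6 filled points are Slc36a1 and Borcs6 on the right and Mios, Sesn1, Sesn2 and Skp2 on the left.

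Other genes had nearly the same profile over the 6 libraries, by Euclidean distance between log2 levels centred on each gene's mean. Nearest to Rraga were Trem1 (distance 0.167) and Mex3c (0.173). Lamtor4 was nearest to Tmem258 (0.0507) and Chd4 (0.0543), and Lamtor2 to Dcp2 (0.0556) and Phpt1 (0.0595). For Lamtor3 the nearest were Stard3nl (0.0589) and Snapc3 (0.0909), for Lamtor1 Pdrg1 (0.0482) and Rock1 (0.0544), and for Lamtor5 Ctsz (0.0613) and Esd (0.0779). No Lamtor gene was among the 2 nearest of another.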

How the data were processed

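RNA was prepared with a TruSeq Stranded mRNA kit and sequenced on a NovaSeq instrument. The authors trimmed reads with fastp. The labels name HISAT2, StringTie and GRCm38 (mm10), whereas the paper names RSEM. Each deposited file lists gene symbols with 1 value, taken as FPKM from the values, since no source names the unit. For 14838 of 14838 genes above 0 in at least 2 libraries, the values were whole multiples of 1 read (tolerance 0.02). Replicates may be technical, so p-values measure the spread between these samples. Genes with at least 1 FPKM in 3 libraries entered limma 3.58.1 (R 4.3.3, eBayes with a trend) as log2(FPKM + 1), and the script was tested on simulated data. Fold changes of low genes are understated on this scale. Trends in length and GC were removed by splines (5 degrees of freedom). Transcripts came from the GENCODE reference and were compared with BLAST+ 2.17.0. Named pathway genes were those called and the extremes of each role, of which 1 role group is not reported here. The members and lists were chosen with earlier results of these data known. Alternatives covered scaling, filter, pseudocount, variance trend, replicate block, library left out, library weights, voom, thresholds and length with GC.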

Additional observations from a re-analysis of the deposited data

How the results depend on the processing

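Over all genes, 691 were called, 30.0% of them higher. The count was 374 with no filter, 223 with a pseudocount of 5, 1062 with voom on recovered reads, 3435 with library weights and 2130 without the fold threshold. It was 0 to 3438 when 1 library was left out. With length and GC trends removed it was 277 (56.3% higher), and of 2 alternatives chosen after seeing the data, 313 (51.1% higher) with the longest transcript and 1928 (54.7% higher) without control replicate 2. Calls were 304 higher and 319 lower under quantile normalization, 297 and 260 under TMM scaling, and 300 and 259 under 75th percentile scaling. Of the genes followed here, 2 were called, but 0 under quantile normalization or with length and GC trends removed, and 1 under TMM or 75th percentile scaling, no filter, a pseudocount of 5 or the longest transcript. Library weights gave 5, the trends removed without control replicate 2 gave 3, and leaving out 1 library 0 to 5. Of the other pathway genes 6 were called, but 3 with no filter, a minimum of 5 FPKM or the trends removed, 0 with a pseudocount of 5, 13 with library weights or no fold threshold, and 0 to 13 with 1 library left out.

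A replicate block left 0 genes called in each of these lists (1780 genes had an unadjusted p under 0.05 and a fold over 2). The numbers were not taken to pair the samples. Deviations of same-numbered libraries correlated at -0.06, -0.05 and 0.01, and those of other pairs at -0.054 to 0.057. Since control replicate 2 dominates the deviations of the controls, these correlations cannot decide whether the samples are paired.

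Lamtor5, at 0.04, was -0.090 under quantile normalization, -0.063 to 0.19 with 1 library left out (-0.018 without control replicate 3), -0.41 with trends removed, -0.49 when control replicate 2 was also left out and -0.49 with the longest transcript. Lamtor1 came to -0.043 with trends removed (-0.0069 also without control replicate 2) but to 0.64 with the longest transcript. Lamtor2 came to -0.021 with trends removed (-0.083 with the longest transcript), and Lamtor3 to 0.12 with the longest transcript. Of 179 single-gene alternatives, 138 kept direction and side of the threshold, 22 lost the call, 8 gained it and 11 changed sign. The cause was not tested. The 79 to 346 reads of Rraga and 0 to 7 of Rragd limit their precision.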
